A study of Mus musculus with 6 samples.

Results

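The ER-associated degradation (ERAD) machinery was followed as 39 genes of the 21456 in the expression table, chosen by gene symbol for their known place in the pathway. All 39 had a mean normalized count of at least 10 over the 6 mice and were tested among 16157 genes. Ntsr2 encodes a receptor of the peptide neurotensin, and the study deleted it in adipocytes to examine food intake. RNA of white adipose tissue (WAT) was sequenced from 3 control mice and 3 mice lacking Ntsr2 in adipocytes (Ntsr2 AKO), all fed a chow diet. Control mice were Ntsr2 flox/flox, and Ntsr2 AKO mice carried Adipoq-cre with the same floxed alleles. Adipoq-cre acts in white and brown adipocytes alike and is not directed at the other cells of the tissue. The labels call the tissue adipose, the study's text calls it WAT, and the depot, age and sex of these mice are not given in the sources used here. The mice of each group are called 3, 4 and 5, as in the labels, and values of single mice are given in that order.

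ERAD is the route by which proteins that fail to fold in the endoplasmic reticulum are recognized, moved back across the membrane and destroyed by the proteasome. Mannosidases and lectins mark and read the sugar chains of such proteins, a membrane complex around the ligase HRD1 passes them out and attaches ubiquitin, and the ATPase p97 (VCP) pulls them into the cytosol. Several of these genes are known targets of XBP1 and ATF6, the transcription factors of the unfolded protein response (UPR), which raise the capacity of the pathway when folding fails.

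Reads assigned to genes, as recovered from the normalized counts, summed to 60405373 to 66098226 in control mice and 54085088 to 56268725 in Ntsr2 AKO mice. The deleted gene, Ntsr2, had normalized counts of 83.8, 64.0 and 153 in control mice, against 3.10, 8.29 and 0 in Ntsr2 AKO mice. All 8 adipocyte markers were present, with a summed normalized count of 1286272 to 1846680.1 in control mice and 1577543 to 1837477 in Ntsr2 AKO mice. A list of 10 skeletal muscle genes summed to 1011, 509.6 and 2598682 in control mice 3, 4 and 5 and to 1567, 85407 and 187090.2 in Ntsr2 AKO mice, so control mouse 5 and Ntsr2 AKO mice 4 and 5 carried muscle transcripts. The sum of 9 immediate early genes was 12066 to 19104 in control mice and 5291 to 6862 in Ntsr2 AKO mice, and that of 8 plasma cell genes was 8221 to 19196 and 9386 to 27655. Atf3, which the study counts among UPR-related genes, is included in these 9 immediate early genes. Its normalized counts were 521, 657 and 497 in control mice, against 328, 129 and 320 in Ntsr2 AKO mice. The part of these immediate early and plasma cell genes in the values of the ERAD genes was not tested. In bulk tissue, fewer cells of a type and less RNA per cell cannot be told apart.

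Over the pathway as a whole the differences between Ntsr2 AKO and control mice were small. The members with the smallest p were cofactors of p97 (Ubxn4, Nploc4 and Faf1), the ER membrane protein Wfs1 and the ubiquitin-conjugating enzyme Ube2j1, all with lower levels in Ntsr2 AKO mice. Of the 39 genes, 28 had a lower and 11 a higher fitted level in Ntsr2 AKO mice, and their median log2 fold change was -0.09, against -0.01 over all 16157 genes. A lower level was found for 71.8% of the ERAD genes and for 51.0% of all genes. This share depended on the scaling: after quantile normalization 19 of the 39 were lower and their median was 0.00, beside 0.05 for all genes.

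No ERAD gene passed an adjusted p of 0.05 in limma, where 1 gene of all tested did (0.00619%), and the smallest adjusted p among them was 0.522. DESeq2, run on the recovered reads, called no ERAD gene, though it gave Derl3 no adjusted p, against 1.5% of all genes, and edgeR called none of the 39 and 0% of all genes. At an unadjusted p under 0.05, limma picked 5 ERAD genes, all lower in Ntsr2 AKO mice, namely Nploc4, Ubxn4, Faf1, Ube2j1 and Wfs1. That is 12.8% of the ERAD genes, where 5.27% of all genes were lower by the same measure. None was higher, where 3.08% of all genes were. At that level edgeR and DESeq2 each picked 4 lower genes, Nploc4, Ubxn4, Faf1 and Wfs1, and 1 higher, Edem2, and neither picked Ube2j1. Of all genes, 4.9% were lower and 3.29% higher in edgeR, and 6.39% and 4.01% in DESeq2. The limma count changed with single mice, in both directions. Of the omissions of control mouse 4 and of Ntsr2 AKO mouse 3, at least 1 raised it above 5, and the other omissions lowered it. It was 1 without Ntsr2 AKO mouse 4 or without Ntsr2 AKO mouse 5, where 2.56% and 3.70% of all genes were lower, 2 without control mouse 5 (3.43%) and 3 without control mouse 3 (4.67%). For control mouse 4 and Ntsr2 AKO mouse 3 the share over all genes is not given here, so the rise has no background beside it. The 3 control and 3 Ntsr2 AKO mice did not overlap for 7 lower ERAD genes (17.9%), against 8.16% of all genes, and for 1 higher gene, Edem2, where the background was 6.82%.

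The members had a median SE of the log2 fold change of 0.14, against 0.24 over all genes tested. Over the 7539 genes with a mean of at least 1000 it was 0.16, so the members were measured about as precisely as other well expressed genes. The 95% interval of the log2 fold change lay within 0.5 of 0 on both sides for 19 of the 39 genes (48.7%), against 21.4% of all genes, weakly expressed ones included, and within 1 for 37. The other two were Wfs1 and Derl3. In control mice the coefficient of variation of an ERAD gene had a median of 11.7%, from 2.50% for Ube2j1 to 50.7% for Derl3. Over the 7539 genes with a mean of at least 1000 it was 13.5%, so the ERAD genes varied about as much as other well expressed genes.

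**Figure D1:**
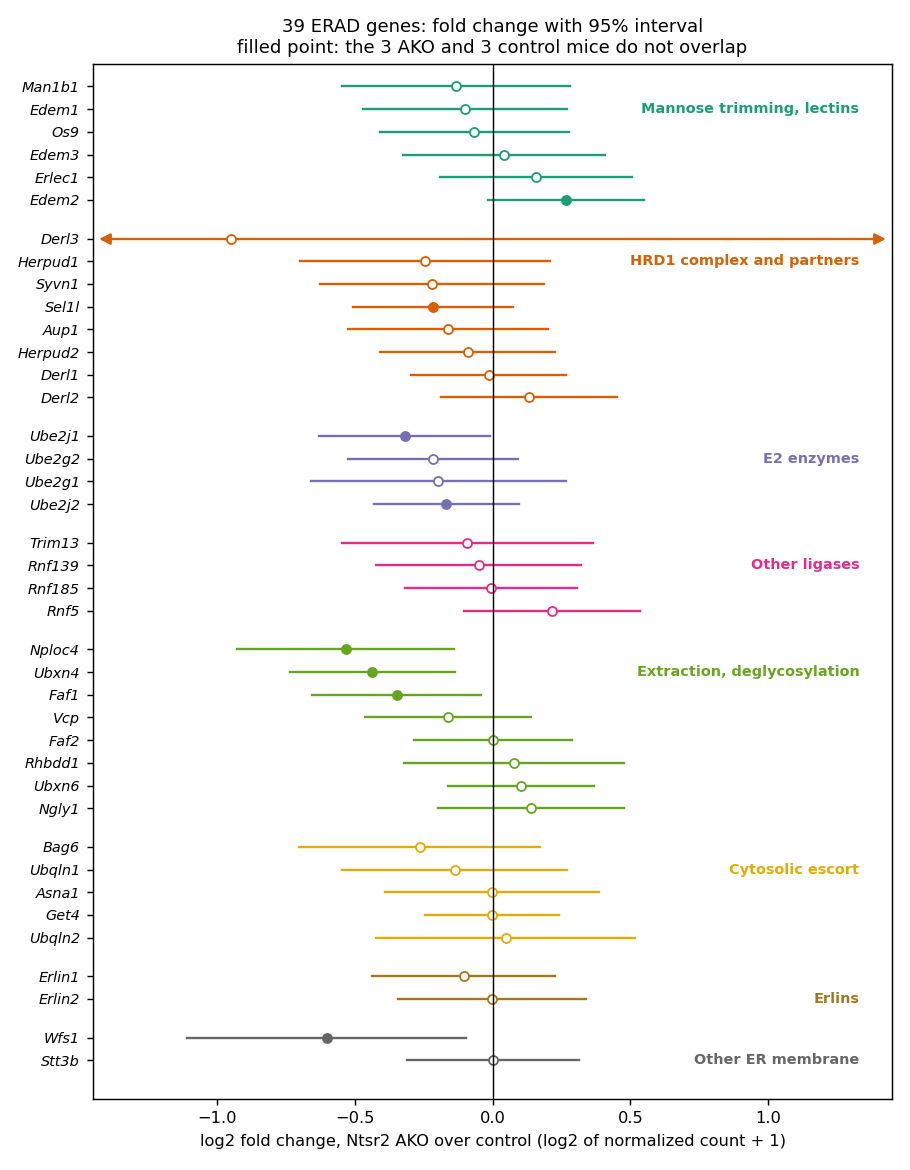
Log2 fold change of the 39 ERAD genes, Ntsr2 AKO over control, on the log2(normalized count + 1) scale (horizontal axis), by role in the pathway (colour); lines are 95% intervals from limma, arrows mark an interval that leaves the axis, and filled points mark genes whose 3 and 3 mice do not overlap. The intervals of Nploc4, Ubxn4, Faf1, Ube2j1 and Wfs1 lie below 0, and those of all other members include 0.

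Stress-response elements were looked for in the promoters, because XBP1 and ATF6 are known to act on part of this machinery. RefSeq promoters of build GRCm38.p6, each from 250 bases before to 50 bases after a gene's start, were matched by symbol for 30 of the 39 genes. The ER stress element (ERSE) was searched as CCAAT and, after any 9 bases, CCACG. ERSE-II was searched as ATTGG and, after any 1 base, CCACG, so both elements share their last letters, and the unfolded protein response element (UPRE) as TGACGTGG or TGACGTGA. Both strands were read. ERSE was found in 0.119% of 32851 promoters and in those of 2 members, Syvn1 and Derl3. ERSE-II was found in 0.0365% of promoters and in 1 member, Herpud1, and UPRE in 1.12% and in 2 members, Ube2j1 and Vcp. The stretches are printed 5′ to 3′ on the gene's strand with the match in capitals, and only those of the 39 members are shown. Of 48 other ERAD genes with a promoter, 6 held ERSE, 1 ERSE-II and 3 UPRE. The Syvn1 stretch is chr19:6046502-6046575 on the plus strand, that of Derl3 chr10:75893212-75893290 on the plus strand with the element on the opposite strand, that of Herpud1 chr8:94386347-94386417 on the plus strand, that of Ube2j1 chr4:33031282-33031349 on the plus strand with the element on the opposite strand, and that of Vcp chr4:43000584-43000651 on the minus strand.
Syvn1: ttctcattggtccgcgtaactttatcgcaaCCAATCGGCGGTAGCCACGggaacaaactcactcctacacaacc
Derl3: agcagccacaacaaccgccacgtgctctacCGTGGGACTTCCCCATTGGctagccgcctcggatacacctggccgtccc
Herpud1: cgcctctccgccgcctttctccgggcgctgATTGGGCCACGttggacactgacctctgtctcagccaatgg
Ube2j1: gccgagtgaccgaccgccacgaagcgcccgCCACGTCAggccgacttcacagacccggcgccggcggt
Vcp: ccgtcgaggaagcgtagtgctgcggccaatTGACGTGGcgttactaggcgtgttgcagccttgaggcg
A match describes these letters only. The log2 fold changes of the genes that carry one were -0.22 for Syvn1, -0.95 for Derl3, -0.24 for Herpud1, -0.32 for Ube2j1 and -0.16 for Vcp. All were below 0 in limma, although Derl3 was above 0 in edgeR and DESeq2, and of these 5 only Ube2j1 had an interval without 0. The 11 members known as targets of XBP1 or ATF6 had a median log2 fold change of -0.10, with 8 lower and 1 at an unadjusted p under 0.05 in limma. The other 28 members had a median of -0.09, with 20 lower and 4 at that level, so the medians of both sets lay close together.

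Extraction from the membrane held 3 of the 5 genes with the smallest p. Nploc4 (NPL4, chromosome 11, 120380370 to 120437708) encodes a subunit of the heterodimer that docks ubiquitinated proteins on p97. Its normalized counts were 4687, 4043 and 4680.4 in control mice, against 3856, 2831 and 2684 in Ntsr2 AKO mice. All 3 Ntsr2 AKO mice lay below every control mouse, and mice 4 and 5 were lower than mouse 3. Nploc4 averaged 4470.2 ± 369.9 (SD, n = 3) in control mice, against 3124 ± 639 in Ntsr2 AKO mice, which gave a log2 fold change of -0.53 with SE 0.17 and a 95% interval from -0.93 to -0.14 (limma adjusted p = 0.524). Without the 3 mice that carried muscle transcripts, which leaves 2 control mice and 1 Ntsr2 AKO mouse, the log2 fold change was -0.17, and with the muscle score as a covariate it was -0.52. Ufd1l, the other subunit of the heterodimer and not among the 39, had a log2 fold change of 0.00 (95% interval -0.25 to 0.25).

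Ubxn4 (erasin, chromosome 1, 128243964 to 128279378) is an ER membrane protein that binds p97 through a UBX domain, and it had the smallest p among the members. Its counts were 5573, 5849 and 5951 in control mice, against 4796, 4392 and 3722 in Ntsr2 AKO mice. The control mice lay close together, the Ntsr2 AKO mice spread more widely, and no mouse of one group reached the other. The means were 5791 ± 196 (SD, n = 3) in control mice, against 4303 ± 542 in Ntsr2 AKO mice. The log2 fold change was -0.44 with SE 0.13 and a 95% interval from -0.74 to -0.14 (limma adjusted p = 0.522). Its value was -0.43 with the muscle score as a covariate and -0.25 without the 3 mice with muscle transcripts. Only Ntsr2 AKO mouse 3, the highest of its group, remains in that last setting.

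Faf1 (chromosome 4, 109676588 to 109963960), another UBX protein, binds ubiquitinated proteins and p97 together. Its normalized counts, 3050.0, 2750.4 and 3410.3 in control mice, against 2621, 2358 and 2245 in Ntsr2 AKO mice, did not overlap between the groups. The group means were 3070.2 ± 330.4 (SD, n = 3) in control mice, against 2408 ± 193 in Ntsr2 AKO mice, and the log2 fold change was -0.35 with SE 0.13 (95% interval -0.65 to -0.04, limma adjusted p = 0.565). The value of Faf1 was -0.35 with the muscle score as a covariate and -0.14 without the mice with muscle transcripts. The latter again keeps only Ntsr2 AKO mouse 3, the highest of its group.

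The ATPase itself did not separate the groups. Vcp had normalized counts of 23166, 26175 and 27555 in control mice, against 24007, 21697 and 22964 in Ntsr2 AKO mice. Ntsr2 AKO mouse 3 lay above control mouse 3, so the groups overlapped, and the log2 fold change was -0.16 with SE 0.13 (95% interval -0.46 to 0.14). The other 4 members of the extraction group had fitted values at or above 0, with intervals that include 0. Faf2 (UBXD8), which recruits p97 to the ER and to lipid droplets, had a log2 fold change of 0.00 (95% interval -0.29 to 0.29). Ubxn6 had 0.10, but 63.1% of its exon bases overlap Chaf1a on the opposite strand, whose mean normalized count was 102, and no source states whether counting used strand. Rhbdd1, a rhomboid protease of the ER membrane, had 0.08, and Ngly1, the cytosolic enzyme that strips N-glycans from extracted proteins, 0.14. The 8 genes of extraction and deglycosylation thus split into 4 lower and 4 higher, with 3 at an unadjusted p under 0.05 and a median log2 fold change of -0.08.

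Ubiquitin-conjugating (E2) enzymes hand ubiquitin to the ligases of the pathway. All 4 had a lower fitted level, with a median log2 fold change of -0.21. Ube2j1 (chromosome 4, 33031416 to 33052363), the membrane-anchored E2 that works with HRD1, had normalized counts of 4649, 4549.6 and 4422 in control mice, against 4266, 3289.9 and 3432 in Ntsr2 AKO mice. Its control mice spread by the least of any member, every Ntsr2 AKO mouse lay below them, and Ntsr2 AKO mouse 3 was the nearest. It averaged 4540.2 ± 113 (SD, n = 3) in control mice, against 3663 ± 527 in Ntsr2 AKO mice, with a log2 fold change of -0.32, SE 0.13 and a 95% interval from -0.63 to -0.01 (limma adjusted p = 0.590). It was -0.30 with the muscle score as a covariate and -0.11 without the mice with muscle transcripts, which leaves only that nearest Ntsr2 AKO mouse.

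Ube2j2, the related membrane-anchored enzyme, had counts of 2259, 2215 and 2443 in control mice, against 2078, 1927 and 2157 in Ntsr2 AKO mice. These groups did not overlap either, though the gap between them was small, and the log2 fold change was -0.17 with SE 0.11 (95% interval -0.43 to 0.09). Ube2g2, the soluble E2 that AUP1 and gp78 bring to the membrane, had counts of 4801, 4883 and 5887 in control mice, against 4409.6, 4867 and 4108 in Ntsr2 AKO mice, which overlapped through Ntsr2 AKO mouse 4, and a log2 fold change of -0.22 with SE 0.13. In Ube2g2, 8.17% of the exon bases are shared with an annotated gene on the same strand. Ube2g1 had a log2 fold change of -0.20 with SE 0.19.

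The HRD1 complex is the main channel and ligase for luminal proteins. Sel1l, the adaptor that stabilizes HRD1 and receives clients from the lectins, was the one member of this group whose mice did not overlap. Sel1l counts were 6897, 6045 and 5987 in control mice, against 5876, 5534 and 4899 in Ntsr2 AKO mice. The lowest control mouse and the highest Ntsr2 AKO mouse were close, and the log2 fold change was -0.22 with SE 0.12 (95% interval -0.50 to 0.07, limma adjusted p = 0.662). Syvn1, which encodes HRD1, had 3658, 3351 and 2825 in control mice, against 3214, 2984 and 2289 in Ntsr2 AKO mice. The lowest value was that of Ntsr2 AKO mouse 5, but control mouse 5 lay below Ntsr2 AKO mice 3 and 4, and the log2 fold change was -0.22 with SE 0.17 (95% interval -0.62 to 0.19).

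Herpud1, a UPR-induced membrane protein that brings HRD1 complexes and p97 together, had counts of 3187, 3203 and 4872 in control mice, against 2993, 3441 and 2904 in Ntsr2 AKO mice. Its fold change of -0.24 on the log2 scale (SE 0.19) rested on control mouse 5, the only mouse above the range of the rest, which was also the mouse with the highest sum of muscle genes, and it was -0.042 without that mouse. The related Herpud2 had -0.09. Derl1 and Derl2 encode derlins of the retrotranslocation channel. Derl1 had 15532, 16887 and 14288 in control mice, against 14643, 16185 and 15352 in Ntsr2 AKO mice (its log2 fold change was -0.01, 95% interval -0.30 to 0.27), and Derl2 had 3148, 4064 and 3819 in control mice, against 3766, 3949 and 4317 in Ntsr2 AKO mice (its log2 fold change was 0.13, 95% interval -0.19 to 0.45). The groups of both derlins overlapped. In Derl2, 5.37% of the exon bases are shared with Mis12 on the opposite strand, whose mean normalized count was 1026. Aup1, which links the complex to E2 enzymes and lipid droplets, had -0.16.

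Derl3, the derlin most tied to secretory cells, was close to the detection limit, with normalized counts of 11.0, 17.5 and 30.7 in control mice, against 33.0, 28.0 and 0 in Ntsr2 AKO mice. A count of 0 in Ntsr2 AKO mouse 5 allows up to 3 reads, or 3.04 normalized counts. The log2 fold change of -0.95 (SE 1.42) depended on the pseudocount and on that mouse. It was 0.05 in edgeR and in DESeq2 and 0.71 without Ntsr2 AKO mouse 5, so no direction can be given. The 8 genes of the complex and its partners had a median log2 fold change of -0.19, with 7 lower, of which Derl1 and Herpud2 lay above 0 after quantile normalization, 1 higher and none at an unadjusted p under 0.05 in limma.

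**Figure D2:**
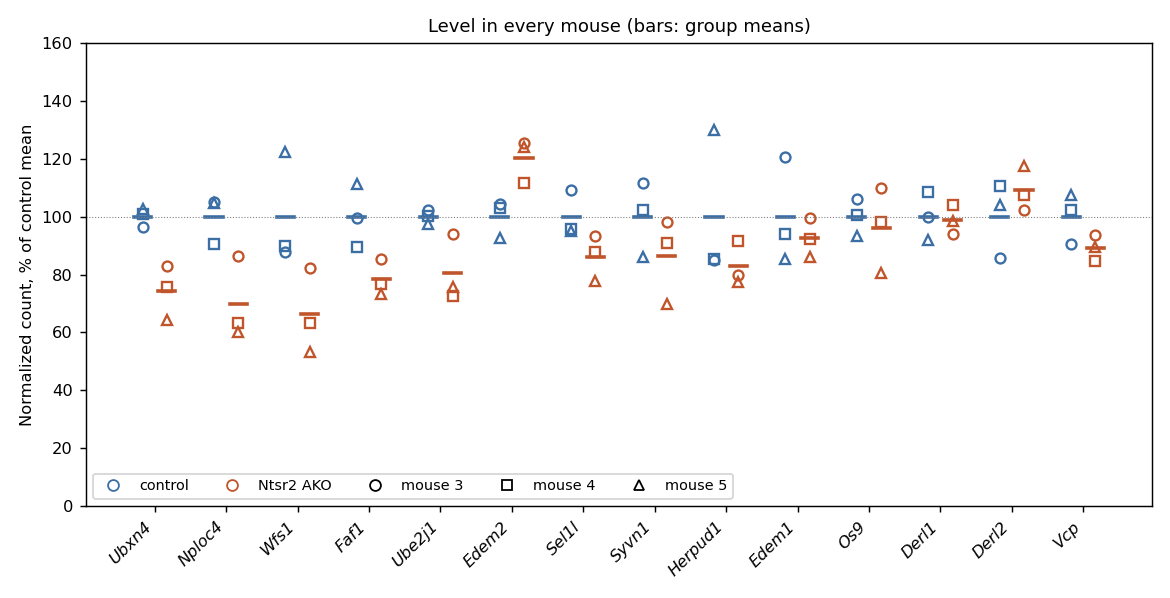
Normalized count of 14 ERAD genes in every mouse, as a percent of the control mean (vertical axis); symbols give the mouse number, colours the group and bars the group means. The groups are apart for Ubxn4, Nploc4, Wfs1, Faf1, Ube2j1, Edem2 and Sel1l and overlap for the other genes plotted, and Edem2 alone among the 7 lies higher in Ntsr2 AKO mice.

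Mannose trimming and lectins gave the one gene that was higher in every Ntsr2 AKO mouse. Edem2 (chromosome 2, 155701677 to 155729475) starts the trimming that commits a glycoprotein to degradation. Normalized counts of Edem2 were 1541, 1522 and 1371 in control mice, against 1855, 1647 and 1831 in Ntsr2 AKO mice. The Ntsr2 AKO values lay above all control values, and Ntsr2 AKO mouse 4 was the nearest to them. It averaged 1478 ± 93.1 (SD, n = 3) in control mice, against 1778 ± 114 in Ntsr2 AKO mice, which gave a log2 fold change of 0.27 with SE 0.12 and a 95% interval from -0.02 to 0.55, which includes 0 (limma adjusted p = 0.601). Over the alternative settings its log2 fold change ran from 0.21 to 0.34. It was 0.28 without the mice with muscle transcripts, which leaves only Ntsr2 AKO mouse 3, the highest of its group.

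Edem1, a related mannosidase-like protein induced by XBP1, did not separate the groups. Its counts were 8721, 6806 and 6164 in control mice, against 7204, 6659 and 6209 in Ntsr2 AKO mice, highest in control mouse 3, with overlapping groups and a log2 fold change of -0.10 (SE 0.16). Edem3 had 0.04 and Man1b1, the ER mannosidase, -0.13. Os9 and Erlec1 encode the lectins that read the trimmed glycans and pass clients to SEL1L. Os9 had counts of 10299, 9746 and 9067 in control mice, against 10654, 9506 and 7828 in Ntsr2 AKO mice (its log2 fold change was -0.07, 95% interval -0.41 to 0.28), and Erlec1 had 1856, 2334 and 2052 in control mice, against 2347, 2023 and 2592 in Ntsr2 AKO mice (its log2 fold change was 0.16, 95% interval -0.19 to 0.50). Neither lectin separated the groups. The 6 genes split into 3 lower and 3 higher, with a median of -0.01.

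Wfs1 (chromosome 5, 36966104 to 36989205), an ER membrane protein that restrains ATF6 by HRD1-dependent degradation and is mutated in Wolfram syndrome, had the most negative log2 fold change among the members apart from Derl3. Its normalized counts were 1407, 1441 and 1963 in control mice, against 1320.2, 1013 and 852 in Ntsr2 AKO mice. Control mouse 5 was the highest and Ntsr2 AKO mouse 5 the lowest, and Ntsr2 AKO mouse 3 lay just under the control mice. Wfs1 averaged 1604 ± 311 (SD, n = 3) in control mice, against 1062 ± 238 in Ntsr2 AKO mice, and its log2 fold change was -0.60 with SE 0.21 and a 95% interval from -1.11 to -0.10 (limma adjusted p = 0.565). It was -0.61 with the muscle score as a covariate and -0.11 without the 3 mice with muscle transcripts. That last setting leaves Ntsr2 AKO mouse 3, the nearest to the control mice, alone in its group. Stt3b, the catalytic subunit of the oligosaccharyltransferase that adds glycans to missed sites, had a log2 fold change of 0.00 (95% interval -0.31 to 0.31).

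Ligases other than HRD1 showed no separation. Rnf5, a membrane-anchored ligase, had counts of 2387, 2555 and 2233 in control mice, against 2402, 2889 and 3081 in Ntsr2 AKO mice. Ntsr2 AKO mice 4 and 5 were the highest of the 6, but Ntsr2 AKO mouse 3 lay among the control mice, and the log2 fold change was 0.22 with SE 0.13. In Rnf5, 29.6% of the exon bases are shared with an antisense gene whose mean normalized count was 4.47. Its relative Rnf185 had -0.01, Rnf139 (TRC8), a sterol-regulated ligase, -0.05, and Trim13 -0.09.

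Escort factors keep extracted clients soluble on the way to the proteasome. Bag6, their central holdase, had the most negative value, with a log2 fold change of -0.26 and SE 0.18, and its groups overlapped. Its partner Get4 was among the best determined members, at 0.00 with a 95% interval from -0.24 to 0.24. Asna1 (TRC40), an ATPase that carries tail-anchored proteins, had 0.00, and the ubiquitin shuttles Ubqln1 and Ubqln2 had -0.14 and 0.05. Erlin1 and Erlin2, which form the ring that delivers activated inositol trisphosphate receptors to degradation, had -0.10 and 0.00.

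Ratios between related genes or partners within a mouse remove whatever scales both genes alike. Of 14 such pairs, chosen after the values were seen, 4 did not overlap between the groups, and each of these had an exact two-sided permutation p of 0.1, the smallest that 3 against 3 allows, and 0.35 after Benjamini-Hochberg adjustment over the 14. The first gene of each of these 4 pairs (Nploc4, Ubxn4, Faf1 and Edem2) had groups that did not overlap by itself. These ratios are therefore no separate test, and the share of other gene pairs that separate was not computed. The ratio of Nploc4 to its partner Ufd1l was 1.12, 0.932 and 1.21 in control mice, against 0.906, 0.678 and 0.684 in Ntsr2 AKO mice. It was lower in each Ntsr2 AKO mouse than in any control mouse, with a log2 difference of -0.53. Ubxn4 over Ubxn6 was 1.75, 1.59 and 1.59 in control mice, against 1.29, 1.14 and 0.978 in Ntsr2 AKO mice (a log2 difference of -0.54), and Faf1 over Faf2 was 1.27, 1.16 and 1.53 in control mice, against 1.003, 1.10 and 0.988 in Ntsr2 AKO mice (a log2 difference of -0.35). These 4 genes encode proteins of the UBX family. Edem2 over Edem1 was 0.177, 0.224 and 0.222 in control mice, against 0.257, 0.247 and 0.295 in Ntsr2 AKO mice (a log2 difference of 0.37), higher in all Ntsr2 AKO mice. By contrast the ratio of Sel1l to Syvn1, the adaptor and its ligase, was 1.89, 1.80 and 2.12 in control mice, against 1.83, 1.85 and 2.14 in Ntsr2 AKO mice, a log2 difference of 0.00.

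**Figure D3:**
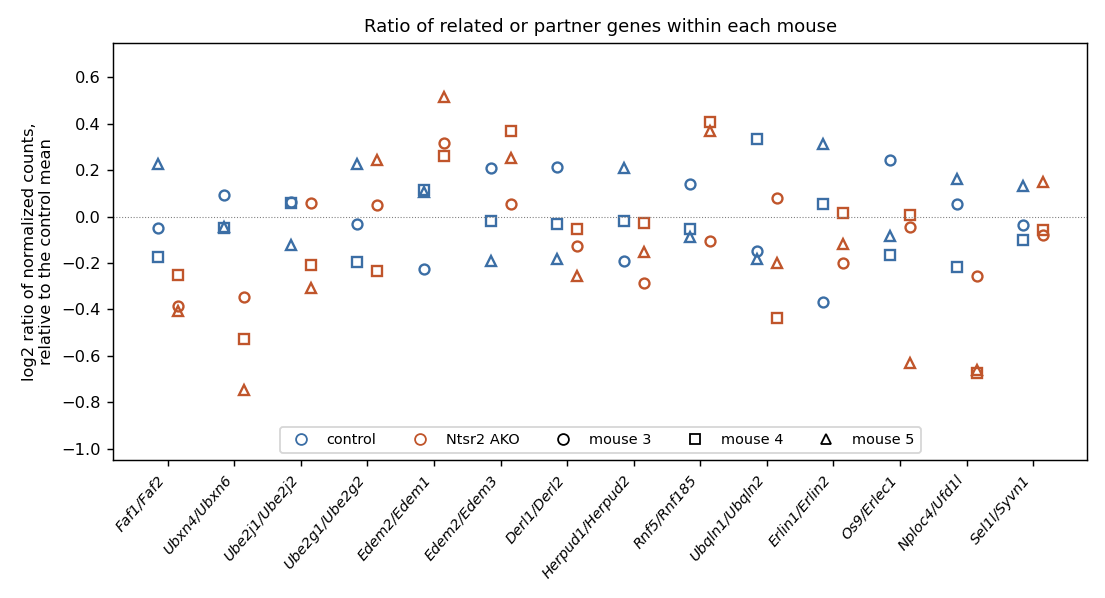
Ratio of the normalized counts of paired genes within each mouse, as log2 relative to the control mean (vertical axis), for 14 pairs; symbols give the mouse number and colours the group. Faf1 over Faf2, Ubxn4 over Ubxn6 and Nploc4 over Ufd1l lie lower and Edem2 over Edem1 higher in all 3 Ntsr2 AKO mice, while Sel1l over Syvn1 spans about the same range in both groups.

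Levels per kilobase of exon ranked the machinery in control adipose tissue. Vcp was the most abundant member, at 7729.9 ± 677 normalized counts per kilobase (SD, n = 3), above the range of all others. Derl1 followed at 4904 ± 409, and its lowest control mouse, at 4500.3, lay just under the highest of Ubqln1, at 4509.8. Ubqln1 (3986 ± 523), Stt3b (3948 ± 474) and Os9 (3691 ± 235) overlapped one another. Ube2g2 and Aup1 came next, at 2556 ± 298 and 2482 ± 291, and they overlapped as well. At the low end, Rhbdd1 (264 ± 35.9) and Trim13 (215 ± 31.3) overlapped, and Derl3 was below all other members, at 15.0 ± 7.58. Among derlins the per-kilobase order was Derl1, Derl2 and Derl3 without overlap, with Derl2 at 855 ± 110.2. Syvn1 (894 ± 115) and Sel1l (999 ± 80.7) had overlapping levels, as had the E2 enzymes Ube2g1 (751 ± 199) and Ube2j2 (639.8 ± 33.6).

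**Figure D4:**
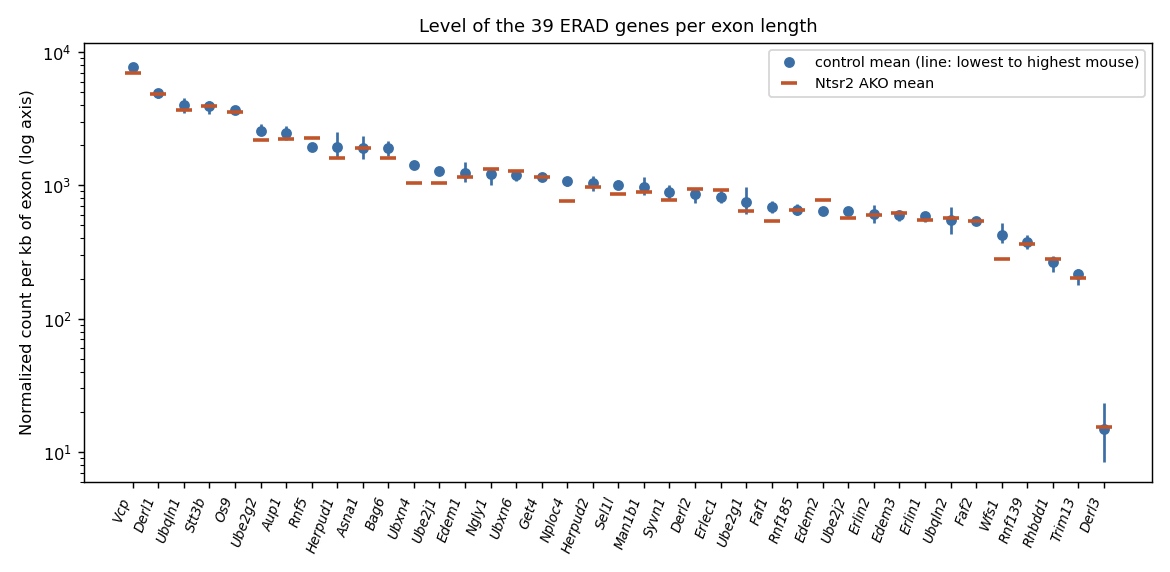
Normalized count per kilobase of exon (log axis) of the 39 ERAD genes, ordered by the control mean; points are control means with lines from the lowest to the highest control mouse, and bars are Ntsr2 AKO means. Vcp is the highest, at 7729.9 in control mice, and Derl3 the lowest, at 15.0.

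The 6 mice did not contribute evenly to the low values. The median over the 39 genes, on the log2 scale relative to the control mean, was -0.03, 0.01 and 0.02 in control mice and -0.01, -0.10 and -0.15 in Ntsr2 AKO mice, so Ntsr2 AKO mouse 3 lay among the control mice. Ntsr2 AKO mouse 5 was the lowest of the 6 for 14 members and Ntsr2 AKO mouse 4 for 7, while Ntsr2 AKO mouse 3 was the lowest for 1. Control mouse 3 was the lowest for 9, control mouse 5 for 7 and control mouse 4 for 1. Muscle transcripts were present in Ntsr2 AKO mice 4 and 5, whose medians were the lowest, and in control mouse 5, whose median was the highest. With the muscle score as a covariate, 4 members (10.3%) were lower at an unadjusted p under 0.05 in limma (Nploc4, Faf1, Ubxn4 and Wfs1), against 5.6% of all genes.

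Other genes of the pathway, 54 on a list of chaperones, reductases, further ligases and extraction factors, had 36 lower and 18 higher, with a median log2 fold change of -0.11. At an unadjusted p under 0.05 limma picked 5 of them, all lower (9.26%), where 5.27% of all genes were lower. The number at that level was 10 without control mouse 3, 3 without control mouse 4 or 5 and 2 without Ntsr2 AKO mouse 4. These counts take both directions together. The share of lower genes over all genes also changed with the mouse left out. It is given above for control mice 3 and 5 and for Ntsr2 AKO mouse 4. For control mouse 4 no such share is given here, so its count has no background. None passed the adjusted p in limma, and DESeq2 called 1, Hspa5 (adjusted p = 0.0349), where it called 1.5% of all genes. The 14 chaperones and reductases had a median of -0.30 with 13 lower, the 21 ligases and adaptors 0.04 with 9 lower, and the 19 extraction factors and deubiquitinases -0.09 with 14 lower. Hspa5, which encodes the ER chaperone BiP, had 35208, 51252 and 41146 in control mice, against 27727, 21846 and 27703 in Ntsr2 AKO mice. Its groups did not overlap, and its log2 fold change was -0.72 with SE 0.19 (limma adjusted p = 0.522).

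Among the others with the smallest p, Uggt1, which senses misfolded glycoproteins, had a log2 fold change of -0.37 (SE 0.11), Mogs, the first glucosidase, -0.38 (SE 0.11), and Rad23b, a ubiquitin shuttle to the proteasome, -0.30 (SE 0.11), each with lower values in all Ntsr2 AKO mice than in any control mouse. The 6 sensors and factors of the UPR were lower by fitted level, with a median of -0.21. Atf4, the factor translated under PERK signalling, had 11264, 8919 and 10675 in control mice, against 8725, 7386 and 6002 in Ntsr2 AKO mice, without overlap (log2 fold change -0.49, SE 0.17, limma adjusted p = 0.564). Xbp1 had 47659, 26029 and 21053 in control mice, against 28640.4, 9731 and 14589 in Ntsr2 AKO mice. Its mice varied widely and overlapped, with a log2 fold change of -0.89 and SE 0.45 (95% interval -1.97 to 0.18). Atf6 had -0.18 without overlap, and Ern1 -0.23, Ddit3 -0.18 and Eif2ak3 -0.02 with overlap. The value of Eif2ak3 ran from -0.09 to 0.03 over the alternative settings, so its sign was not settled. Over all 6 mice Xbp1 ran from 9731 to 47659, and Edem1, a known target of XBP1, from 6164 to 8721. These counts do not tell the spliced form of Xbp1 from the unspliced form, and a link between Xbp1 and Edem1 was not tested.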

How the data were processed

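RNA from WAT of 3 control and 3 Ntsr2 AKO mice was sequenced by the authors, who name Trimmomatic, Hisat2, StringTie and DESeq2. Their processing notes name the build mm10, and the annotation and the use of strand are not given in the sources used here. The deposited signal table holds counts divided by 1 size factor for each mouse, which was read from the values, and whole reads were recovered from it (all values whole within 1e-06). Column names gave the mouse of each column.

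Values were tested as log2(normalized count + 1) in R 4.3.3 with limma 3.58.1 (lmFit, eBayes with trend, no covariate, Benjamini-Hochberg over 16157 genes with a mean of at least 10). Limma was used because the deposited values are not counts, and the recovered reads were given to edgeR 4.0.16 and DESeq2 1.42.0 as alternative tests. P-values set the difference between the groups against the spread between the mice within each group. The sources do not describe these mice further. The fits were tested on simulated data. The 39 genes, all of which are named, the other lists and the rule for values of single mice (the 10 smallest p, core members and the 3 highest fold changes) were chosen with earlier results of these data known. For the other ERAD genes, the 4 with the smallest p and every UPR sensor are named. Positions and exon lengths are from GENCODE M21 (GRCm38), promoters from RefSeq.

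Alternatives were another pseudocount (0.1 or 5), a filter at a mean of 50 or none at all, quantile scaling, no trend, a replicate block, a skeletal muscle score as covariate, thinned reads and the omission of each mouse. Omission of the 3 mice with muscle transcripts was added after seeing the data. Other marker lists were checked at an unadjusted p under 0.05: 7 of 9 immediate early genes were lower, 3 plasma cell genes were higher, 1 of 8 B and T cell genes and 1 mesothelial gene were lower, 1 brown adipocyte gene was higher, and no adipocyte, macrophage, endothelial or progenitor gene passed. Pancreatic acinar genes were at or near 0 (2 of 7 in the table). The 54085088 or more reads assigned to genes in each mouse leave little counting error for all members but Derl3.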

Additional observations from a re-analysis of the deposited data

How the results depend on the processing

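No ERAD gene passed the adjusted p under any alternative run, and 0 genes of all tested did without the filter, without the trend, with the replicate block, with the muscle covariate, in edgeR and without any 1 mouse, against 220 in DESeq2. The number of ERAD genes with an unadjusted p under 0.05 was 3 without the trend and 1 to 6 when each mouse was left out, and that of other ERAD genes was 3 and 2 to 10. The 3 ERAD genes without the trend were all lower (7.69%). Of all genes, 4.48% were lower at that level and 8.20% passed it in either direction. The median of the members was 0.0038 after quantile normalization, -0.13 to -0.039 without each mouse and -0.037 without the 3 mice with muscle transcripts. The members whose groups did not overlap numbered 8 to 14 without each mouse (20.5% to 35.9%, against 19.2% to 30.5% of all genes) and 22 without the 3 mice (56.4%, against 55.3%). That last setting leaves 2 control mice against 1 Ntsr2 AKO mouse, assumed to vary like the others, so it says nothing about the part of muscle. The cause was not tested.

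Replicate numbers were shared between the groups, and no source states that they pair the mice. Same-numbered mice correlated at 0.45, -0.24 and 0.41 after the group means were removed. With so few mice, and no comparison with differently numbered mice, these values cannot decide whether the numbers pair the mice. With the replicate block 2 ERAD genes, Nploc4 and Ubxn4, had an unadjusted p under 0.05 in limma, both lower (5.13%). Of all genes, 5.36% were lower at that level and 8.06% passed it in either direction.

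Of 701 log2 fold changes under alternatives, 66 changed sign, in 21 members, all without a call at the adjusted p. They were 0.0085 for Edem1, 0.044 for Os9, 0.058 for Derl1, 0.0038 for Herpud2, 0.019 for Rnf139, 0.074 for Rnf185, 0.098 for Get4, 0.094 for Asna1 and 0.096 for Erlin2 after quantile normalization; 0.00076 for Rnf185, 0.0018 for Get4, 0.013 for Erlin2 and -0.0017 for Stt3b with the muscle covariate; 0.055 for Derl3, 0.0017 for Rnf185 and 0.0081 for Get4 in edgeR; 0.048 for Derl3 and 0.0042 for Get4 in DESeq2; 0.017 for Rnf185, 4.1e-05 for Get4, 0.013 for Asna1 and 0.0053 for Erlin2 with thinned reads; and 0.049 for Man1b1, 0.089 for Os9, 1.19 for Derl3, 0.087 for Herpud2, 0.080 for Aup1, 0.027 for Ube2g1, -0.040 for Rnf5, 0.11 for Rnf185, -0.044 for Rhbdd1, 0.031 for Bag6 and 0.044 for Ubqln1 without the 3 mice. Leaving out each mouse gave -0.21 to 0.044 for Edem1, -0.075 to 0.17 for Edem3, -0.037 to 0.022 for Get4, -0.11 to 0.12 for Erlin2, -0.10 to 0.070 for Stt3b, -0.075 to 0.046 for Derl1, -0.078 to 0.068 for Rnf185, -0.14 to 0.15 for Asna1, -0.11 to 0.22 for Ubqln2, -0.18 to 0.0086 for Herpud2, -0.33 to 0.011 for Ube2g1, -0.16 to 0.041 for Rnf139, -0.080 to 0.063 for Faf2, -0.031 to 0.17 for Rhbdd1, -0.24 to 0.00013 for Man1b1, -0.17 to 0.054 for Os9 and -1.83 to 0.71 for Derl3. The other 18 members kept their sign throughout.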
